A study of Mus musculus with 63 samples.

Results

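The comparison set β cells from NOD-ICR mice without diabetes, a strain label that joins the autoimmune NOD line with the outbred ICR stock, against β cells of ICR adults. It used 24 of the 63 RNA sequencing libraries of the series. These were the 7 libraries labelled type-1 non-diabetic (T1ND) and the 17 adult wild-type ICR libraries whose RNA was extracted on Qiagen columns, because every T1ND library was made that way. The series as a whole follows mouse β cells through maturation and in models of type 1 and type 2 diabetes. Islets were dissociated and mCherry-positive cells were sorted by flow cytometry before RNA extraction.

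All 24 libraries carry the same genotype, Cherry/+ and Ins2-Cre/+, in which Cre driven by the insulin 2 promoter turns on a red reporter. Sorting thus selects for cells in which that promoter is or was active. Transcripts of other cell types were present too, as given below. The T1ND mice (5 females and 2 males) were 82 to 212 days old, weighed 21.15 to 32.98 g and had a blood glucose of 108 to 245 mg/dl. The ICR adults (7 females and 10 males) were 84 to 364 days old, weighed 19.46 to 62.39 g and had a blood glucose of 103 to 190 mg/dl. The mouse of 245 mg/dl, T1ND 5, was also the oldest of its group. Age, sex and weight were thus not matched, and the labels do not say how the NOD-ICR mice were bred or whether animals were pooled, so the p-values below measure the spread between these libraries. Libraries are numbered within each group in the order of the labels.

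Libraries held 28402805 to 42138695 expected counts, the read counts that the authors' quantifier assigns to genes. Y-linked genes fitted the labelled sex in all 24 libraries. The 10 genes chosen to define β cells were present throughout, and the insulin genes *Ins1* and *Ins2* held 23.7 to 42.5% of counts in T1ND and 18.9 to 56.7% in ICR adults. Genes of acinar cells, the pancreatic cells that make digestive enzymes, held 3.04 to 24.8% of counts in T1ND and 0.194 to 33.7% in ICR adults. Levels below are in CPM, counts scaled to a common library size with TMM factors, and a gene is called changed where the adjusted p of the two-sided quasi-likelihood test of edgeR (13571 genes, Benjamini-Hochberg adjustment) lies below 0.05. Differences are given on the log2 scale as T1ND minus ICR, ± standard error.

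Interferons are secreted cytokines that cells release on sensing viral nucleic acid or, for interferon gamma, that T cells and natural killer cells release. They bind receptors that activate JAK kinases and STAT transcription factors, which with IRF factors switch on a shared set of genes through short DNA elements near the start of transcription. The products of these genes degrade viral RNA, attack intracellular microbes, load peptides onto MHC molecules and attract leukocytes, and the pathway also induces its own inhibitors. In autoimmune diabetes leukocytes gather around and within islets before glucose rises, and β cells with raised MHC class I are known from islets of that stage.

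Between the groups 1962 of 13571 genes (14.5%) were called. Of these 1180 (8.7%) were higher and 782 (5.76%) lower in T1ND, and 993 of the 1962 differed by at least 2-fold. The median difference over all tested genes was -0.04. Not every T1ND library shared in the calls alike. T1ND 1 lay above every ICR library for 17.3% of the 1180 genes called higher, T1ND 2 for 33.8% and T1ND 3 for 51.3%, while the share ran from 74.6 to 81% in T1ND 4 to 7. Without T1ND 1 the number of called genes was 2359, and without T1ND 6 it was 1461.

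**Figure D1:**
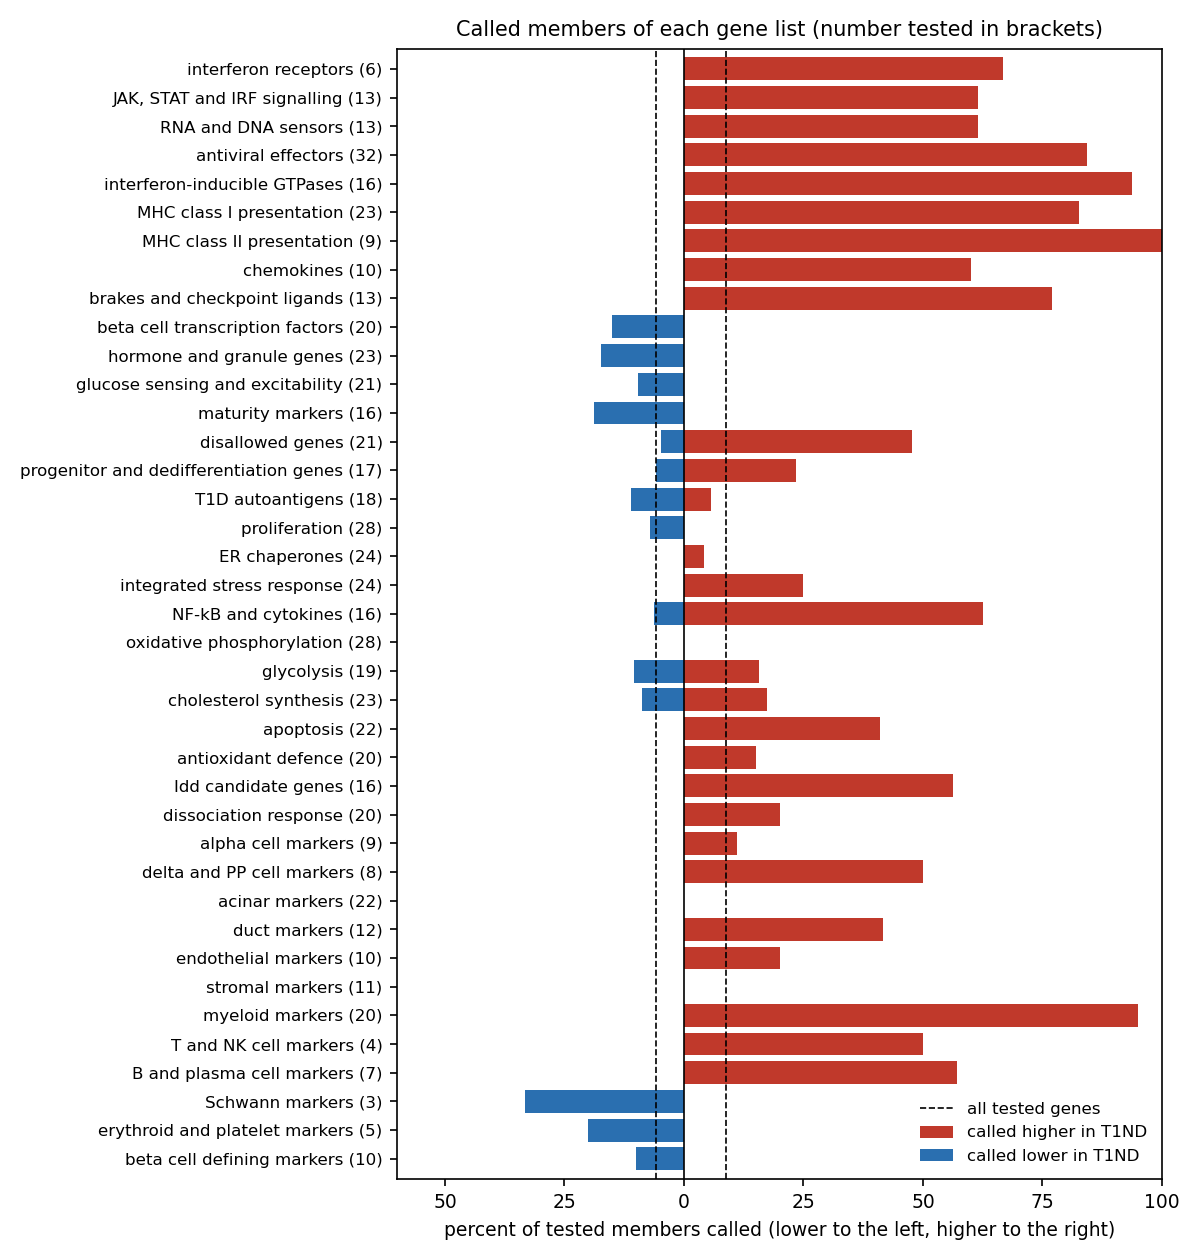
Percent of the tested members of each gene list called higher (red, to the right) or lower (blue, to the left) in T1ND (n = 7) than in ICR adults (n = 17), with dashed lines at the shares over all tested genes, 8.7% and 5.76%. All 9 interferon lists with tested members and the myeloid markers lie far to the right of the dashed line, and no list of β cell identity reaches past the right dashed line except the disallowed and progenitor genes.

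The widest differences within the interferon pathway lay in the interferon-inducible GTPases, which coat and break open vacuoles that hold microbes. Of 17 listed genes 16 passed the filter on low counts, and 15 of those were called higher, with a median of 5.87 against -0.04 over all genes. Their summed level was 53.5, 1417, 1253, 4762, 3166, 7061 and 6423 CPM in T1ND 1 to 7 and 37.4 to 238 CPM (median 86.7) in ICR adults. T1ND 1 therefore lay inside the ICR range, and the other 6 libraries lay above it.

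For some called genes of the interferon lists, the DNA just before the start was read from RefSeq promoter sequences of GRCm38.p6, the build known as mm10. It was searched on both strands for the letters of the interferon-stimulated response element (ISRE), GAAANNGAAA, which STAT and IRF complexes are known to bind. Genes shown were chosen after their values were seen, to cover GTPases, a chemokine, an antigen presentation gene and an antiviral effector. Each line is the 250 bases before an annotated start, 5′ to 3′ on the gene's strand. For a gene with several annotated starts, the window with the most matches was shown, counting the ISRE and the gamma-activated sequence described below. Capitals mark the ISRE letters or, where the match is on the other strand, their reverse complement.
Gbp2: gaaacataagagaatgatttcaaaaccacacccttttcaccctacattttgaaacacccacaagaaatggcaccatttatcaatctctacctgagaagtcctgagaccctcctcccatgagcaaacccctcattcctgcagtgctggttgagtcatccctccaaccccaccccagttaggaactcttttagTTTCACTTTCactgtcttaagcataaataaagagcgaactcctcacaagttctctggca
Igtp: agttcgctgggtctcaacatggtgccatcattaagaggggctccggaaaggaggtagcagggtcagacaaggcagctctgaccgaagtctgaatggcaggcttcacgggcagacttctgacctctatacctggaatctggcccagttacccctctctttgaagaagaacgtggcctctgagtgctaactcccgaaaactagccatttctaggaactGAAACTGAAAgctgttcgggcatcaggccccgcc
Irgm1: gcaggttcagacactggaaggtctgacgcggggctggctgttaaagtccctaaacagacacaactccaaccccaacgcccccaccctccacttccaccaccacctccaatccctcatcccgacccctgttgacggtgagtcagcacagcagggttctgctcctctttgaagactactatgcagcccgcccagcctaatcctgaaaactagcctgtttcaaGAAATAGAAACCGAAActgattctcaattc
Cxcl10: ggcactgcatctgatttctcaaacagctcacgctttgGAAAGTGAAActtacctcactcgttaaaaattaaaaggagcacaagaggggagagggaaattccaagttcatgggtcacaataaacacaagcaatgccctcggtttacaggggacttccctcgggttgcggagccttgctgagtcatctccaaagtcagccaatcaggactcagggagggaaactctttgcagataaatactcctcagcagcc
B2m: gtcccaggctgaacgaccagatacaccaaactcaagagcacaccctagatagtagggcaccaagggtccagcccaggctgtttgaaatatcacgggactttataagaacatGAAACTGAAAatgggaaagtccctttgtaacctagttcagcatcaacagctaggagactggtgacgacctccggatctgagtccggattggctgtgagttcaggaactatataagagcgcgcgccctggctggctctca
Isg15: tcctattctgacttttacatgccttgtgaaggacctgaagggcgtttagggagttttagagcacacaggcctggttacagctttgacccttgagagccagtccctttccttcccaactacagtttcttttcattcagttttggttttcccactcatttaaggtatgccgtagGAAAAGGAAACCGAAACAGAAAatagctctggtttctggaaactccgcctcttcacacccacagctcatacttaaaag
The windows lie at chr3:142620413-142620662 (+ strand, *Gbp2*), chr11:58199306-58199555 (+, *Igtp*), chr11:48871421-48871670 (-, *Irgm1*), chr5:92348890-92349139 (-, *Cxcl10*), chr2:122147437-122147686 (+, *B2m*) and chr4:156200819-156201068 (-, *Isg15*). Counted from the outer end of the match, the letters begin 59 bases before the start of *Gbp2*, 34 before *Igtp*, 139 before *B2m* and 213 before *Cxcl10*. *Irgm1* holds a pair of overlapping matches, at 30 and 24 bases, and *Isg15* a chain of 3, at 78, 72 and 66 bases.

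In windows of 300 bases (250 before to 50 after the start), the ISRE letters were found for 9 of the 10 called GTPase genes that have a window in the table. The share was 9 of 21 for called antiviral effectors, 5 of 16 for called MHC class I genes, and 34 of 81 (42%) over all called genes of the interferon lists. Among all 10857 tested genes with a window, 390 (3.59%) held the letters. The letters of the gamma-activated sequence, TTCNNNGAA, bound by STAT dimers, stood in 20 of the 81 (24.7%) and in 8.46% of all tested genes with a window. The lists were chosen as genes of the interferon pathway, so a share above that of all genes came with their choice. It says nothing about these libraries, and list members not called were not examined for comparison. A match is a description of letters, and no binding was measured here.

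*Gbp2* (chr3:142620663-142638008), a guanylate-binding GTPase of host defence, stood at 1.08, 87.1, 54.2, 296, 266, 380.3 and 390.2 CPM in T1ND 1 to 7 and at 0.132 to 1.004 CPM (median 0.540) in ICR adults. Among the 17 listed GTPases it was the only gene of which no T1ND library fell within the ICR range, and T1ND 1 stood just above that range (log2 difference 8.55 ± 0.56, adjusted p = 2.39e-10). *Igtp* (chr11:58199556-58207592), an immunity-related GTPase, stood at 9.61, 153, 132.7, 567, 442, 765.3 and 653 CPM against 4.80 to 11.7 CPM (median 7.92). Here T1ND 1 lay within the ICR range and the other 6 libraries lay more than 10 times above its top (log2 difference 5.64 ± 0.39). *Tgtp2*, a T cell specific GTPase that is nearly identical to *Tgtp1*, so that reads may be split between them, rose by 9.31 ± 0.66. *Iigp1*, which destabilises parasite vacuoles, rose by 8.35 ± 0.60, from a median of 1.11 CPM in ICR adults to 240 to 1105 CPM in T1ND 2 to 7.

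Signals upstream of these genes were next examined, from ligands to receptors to transcription factors. None of 13 interferon ligand genes passed the filter. *Ifng*, interferon gamma, had 12 counts in all over 2 T1ND libraries (0.0465 CPM in T1ND 2 and 0.235 in T1ND 4) and 0 counts in 17 ICR libraries, where a count of 0 allows up to 3 counts over the group. *Ifnb1*, interferon beta, had 1 count in T1ND and 4 in ICR adults. The 13 ligands summed to 0, 0.186, 0.0348, 0.282, 1.18, 0.0766 and 0.121 CPM in T1ND 1 to 7 and to at most 0.203 CPM in ICR adults. The highest sum, in T1ND 5, came from the interferon lambda genes *Ifnl2* (0.844 CPM) and *Ifnl3* (0.338 CPM), close copies named after their values were seen.

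Of 6 receptor genes 4 rose and none fell. *Ifngr1*, the ligand-binding chain of the interferon gamma receptor, stood at 17.7 to 34.0 CPM (median 25.8) in T1ND and 13.5 to 22.4 CPM (median 18.4) in ICR adults and rose by 0.53 ± 0.12. *Ifnar2*, a chain of the type I receptor, rose by 0.92 ± 0.17, while *Ifnar1*, its partner chain, stood at 0.07 ± 0.15 and was not called (adjusted p = 0.789, edgeR).

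Of 13 JAK, STAT and IRF genes 8 rose and none fell, with a median of 1.46. *Irf9*, the DNA-binding subunit of the complex that type I interferon assembles, stood at 11.2, 34.1, 40.4, 72.1, 40.04, 61.3 and 67.9 CPM in T1ND 1 to 7 and 5.22 to 16.5 CPM (median 10.9) in ICR adults and rose by 2.10 ± 0.22. T1ND 1 lay inside the ICR range and the other 6 libraries above it. *Irf1*, a factor induced most by interferon gamma, stood at 17.4, 85.9, 63.9, 138, 130.4, 115.4 and 211 CPM against 12.9 to 23.8 CPM (median 16) and rose by 2.71 ± 0.22. *Irf7*, the amplifier of type I interferon production, rose by 3.31 ± 0.40, and *Irf8*, a factor of myeloid cells that interferon gamma also induces, by 3.53 ± 0.36. *Stat3*, a target of other cytokines, had a difference of 0.40 ± 0.16, which edgeR did not call (adjusted p = 0.104).

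**Figure D2:**
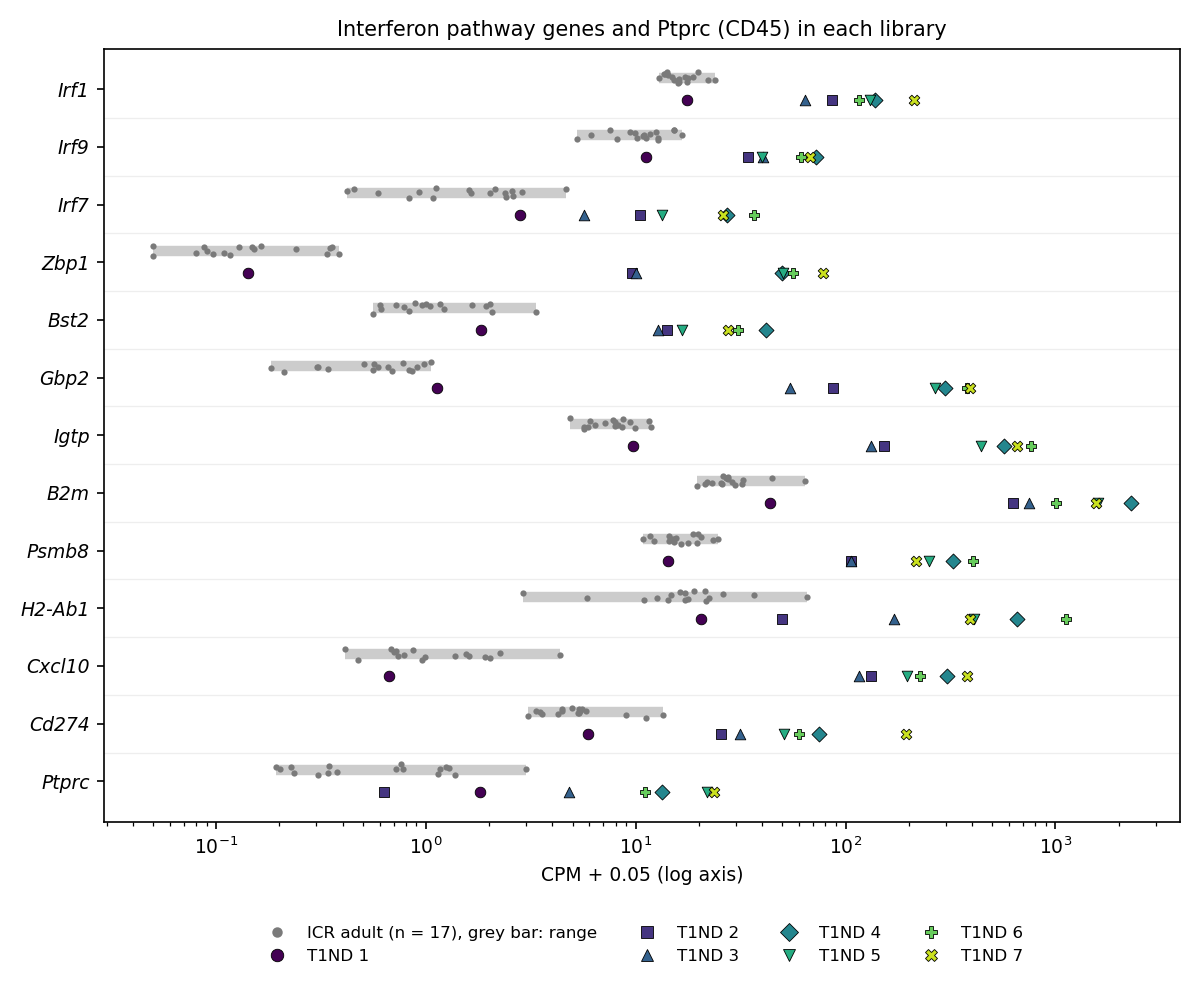
CPM plus 0.05 on a log axis for 12 interferon pathway genes and Ptprc in each library, with ICR adults (n = 17) as grey points over a bar of their range and T1ND 1 to 7 as 7 symbols. T1ND 1 lies within or at the edge of the grey bar for every gene, T1ND 2 lies to the right of it for every gene except H2-Ab1 and Ptprc, and T1ND 3 to 7 lie to the right for all 13.

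Effectors that act on viral RNA and protein formed the largest list. Of 33 antiviral effector genes 32 were tested, and 27 rose while none fell (8.7% of all tested genes rose), with a median of 2.36. Their summed level was 355.8, 785, 721.7, 1812, 1453, 1729 and 1728 CPM in T1ND 1 to 7 and 324 to 487 CPM (median 392.2) in ICR adults, so T1ND 1 again lay within the ICR range and 6 libraries lay above. *Bst2*, tetherin, which holds budding virions at the cell surface, rose by 4.10 ± 0.36. *Xaf1*, a promoter of cell death induced by interferon, rose by 3.18 ± 0.32. *Parp14*, an ADP-ribosyl transferase, rose by 2.54 ± 0.26. *Herc6* (chr6:57580992-57665136), the mouse ligase that attaches ISG15 to proteins, stood at 3.41, 10.4, 5.11, 18.4, 14.97, 35.8 and 52.0 CPM against 0.554 to 2.99 CPM (median 1.32), with every T1ND library above every ICR library (log2 difference 3.69 ± 0.35).

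Sensors of foreign nucleic acid rose in 8 of 13 tested members, and none fell. *Zbp1*, a sensor of left-handed nucleic acid that triggers necroptosis, stood at 0.0921, 9.55, 9.95, 49.6, 50.2, 55.96 and 77.8 CPM in T1ND 1 to 7 and at 0 to 0.335 CPM (median 0.0786) in ICR adults, and rose by 8.16 ± 0.64. *Ifih1* (chr2:62595618-62646255), which codes for the RNA sensor MDA5 and lies within a diabetes susceptibility region of human studies, stood at 1.47, 2.09, 2.37, 4.60, 9.45, 9.57 and 1.52 CPM against 0 to 1.26 CPM (median 0.348) and did not overlap between the groups (log2 difference 3.32 ± 0.51). *Ddx58*, the RNA sensor RIG-I, rose by 2.42 ± 0.32.

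Antigen presentation was higher on both arms. Of 23 MHC class I genes 19 rose and none fell, with a median of 1.60. *B2m* (chr2:122147687-122153082), the invariant light chain of class I molecules, stood at 43.4, 629.6, 749, 2288, 1592, 1005 and 1561 CPM in T1ND 1 to 7 and at 19.4 to 63.9 CPM (median 27.3) in ICR adults. It rose by 5.25 ± 0.35 (adjusted p = 1.58e-10), again with T1ND 1 inside the ICR range. *Psmb8*, an immunoproteasome subunit, rose by 3.60 ± 0.30, and *Tap1*, a peptide transporter into the endoplasmic reticulum, by 3.47 ± 0.32. *H2-Q6*, a non-classical class I gene with close paralogs among which reads can be split, rose by 3.67 ± 0.34.

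All 9 tested MHC class II genes rose, with a median of 4.10. *H2-Ab1*, the class II beta chain of the locus most linked to diabetes in NOD mice, stood at 20.4, 49.4, 169.8, 656, 411, 1121 and 389.8 CPM in T1ND 1 to 7 against 2.85 to 65.2 CPM (median 17.2), and rose by 4.33 ± 0.50. T1ND 1 and 2 lay within the ICR range and T1ND 3 to 7 above it. MHC genes are highly polymorphic between strains, and how well NOD alleles aligned to the mm10 reference was not tested. *Cd74*, the invariant chain, followed the same order and rose by 4.11 ± 0.50. *H2-DMb2* (chr17:34143229-34151553), which helps exchange class II peptides, rose by 3.41 ± 0.35 without overlap. *Ctss*, a protease that trims the invariant chain, is in this list and in the myeloid one.

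Chemokines called higher numbered 6 of 10 tested. *Cxcl10* (chr5:92346638-92348889), which draws activated T cells through CXCR3, stood at 0.614, 132, 115.1, 303, 195, 226 and 379 CPM in T1ND 1 to 7 and at 0.359 to 4.29 CPM (median 0.908) in ICR adults, and rose by 7.21 ± 0.56 (adjusted p = 2.27e-09). *Cxcl13*, which attracts B cells, rose by 7.72 ± 0.80, and *Ccl8*, a monocyte attractant, by 9.14 ± 0.77. *Cxcl9*, named here after its values were seen, was at 0.154, 4.65, 26.1, 47.6, 27.9, 39.5 and 42.1 CPM in T1ND 1 to 7 and at most 0.154 CPM in ICR adults, but did not pass the filter on low counts and was not tested.

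Brakes of the pathway were higher as well, 10 of 13 tested members and none lower (8.7% of all tested genes rose). Their summed level overlapped between the groups, at 234.7 to 537.8 CPM in T1ND and 167.1 to 493.4 CPM in ICR adults. Only 1 library, T1ND 7, lay above the ICR range. *Cd274* (chr19:29362107-29388095), which codes for the checkpoint ligand PD-L1, stood at 5.90, 25.6, 31.3, 74.7, 50.9, 60.1 and 194 CPM in T1ND 1 to 7 against 3.02 to 13.4 CPM (median 5.27) and rose by 3.46 ± 0.37. *Socs1*, an inhibitor of JAK kinases, rose by 1.93 ± 0.30, and *Nfkbia*, the inhibitor of NF-kB, by 0.82 ± 0.16. Of 16 tested NF-kB and cytokine genes 10 rose and 1 fell. *Nfkb2* and *Relb*, the non-canonical subunits, rose by 1.70 ± 0.24 and 1.12 ± 0.21, and *Icam1*, a leukocyte adhesion molecule, by 3.76 ± 0.55. Of 22 tested cell death genes 9 rose and none fell, among them *Mlkl*, the necroptosis executioner, by 2.96 ± 0.41 and *Casp1*, the inflammasome caspase, by 4.17 ± 0.48.

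Markers of leukocytes moved with the interferon genes across most libraries. Of 20 myeloid markers 19 rose, with *C1qc*, a complement component of macrophages, at 4.05, 4.74, 36.1, 175, 168, 252 and 119.0 CPM in T1ND 1 to 7 and 0.334 to 17.8 CPM (median 4.16) in ICR adults, and *Ptprc* (CD45), the common leukocyte antigen, at 1.75, 0.581, 4.77, 13.3, 21.8, 10.95 and 23.6 CPM against 0.143 to 2.96 CPM (median 0.670). The 20 markers summed to 97.9, 92.1, 352, 1810, 1749, 2304 and 1626 CPM in T1ND 1 to 7 and 25.8 to 257 CPM (median 87.2) in ICR adults, and none was at 0 in a whole group. They held 0.01 to 0.209% of counts in T1ND and 0.00245 to 0.0251% in ICR adults. In bulk libraries, more cells of a type and more RNA per cell cannot be told apart. Of 17 T and NK cell markers only 4 passed the filter, of which *Cd8a* and *Lck* rose, and the 17 summed to 2.27, 5.48, 9.81, 19.1, 12.2, 14.6 and 11.9 CPM against 1.97 to 4.48 CPM (median 3.13). *Cd8a* rose by 2.24 ± 0.46, and by 1.47 without T1ND 4. The call of *Lck* (0.90 ± 0.29) is lost without T1ND 4, 5 or 6.

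In T1ND 2 the interferon genes were high while the myeloid markers were not. Its myeloid sum of 92.1 CPM lay inside the ICR range, and it exceeded every ICR library in 0 of the 19 called myeloid markers. The same library exceeded every ICR library in 72 of the 106 called genes of the interferon lists, against 5 of 106 in T1ND 1, 84 in T1ND 3 and 102 to 106 in T1ND 4 to 7. Its T and NK sum of 5.48 CPM was above the highest ICR library, 4.48 CPM.

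In T1ND 3 to 7 the myeloid, antiviral effector and GTPase sums all lay above the ICR range. Not every interferon list did so, and the JAK, STAT and IRF sum of T1ND 3 (582.4 CPM) lay below the highest ICR library (594.6 CPM). T1ND 3 exceeded every ICR library in only 9 of the 19 called myeloid markers, against 18 or 19 in T1ND 4 to 7. Fits with the summed markers as a term were therefore made. With the log2 myeloid sum as a term, 183 genes were called, among them 14 of 16 GTPases, 8 of 32 antiviral effectors and 8 of 23 MHC class I genes. With the T and NK sum as the term, 179 were called, among them 11 GTPases and 3 antiviral effectors. With both terms, a fit added after the data were seen, 128 were called, with 1 antiviral effector. Under the myeloid term *Gbp2* stood at 6.58 ± 0.61, *Cxcl10* at 5.68 ± 0.60 and *B2m* at 3.84 ± 0.39, and all 3 were called. Other genes named above were not called under it, among them *Irf7* (1.97 ± 0.55), *Cd274* (1.81 ± 0.51), *Ifih1* (1.77 ± 0.62), *H2-Ab1* (1.13 ± 0.38) and *Socs1* (0.69 ± 0.44). Because the summed markers differ between the groups, these terms can take up part of the strain difference too.

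**Figure D3:**
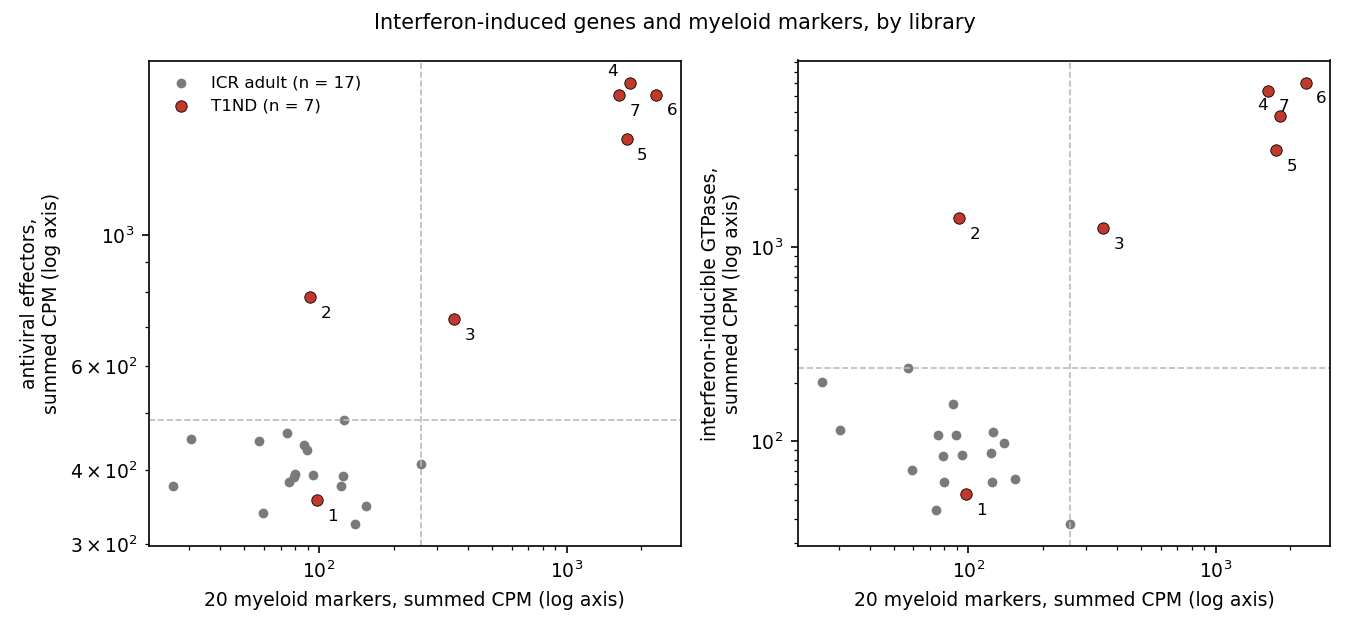
Summed CPM of the antiviral effectors (left) and the interferon-inducible GTPases (right) against summed CPM of 20 myeloid markers, log axes, with 1 point per library (T1ND numbered 1 to 7, red, n = 7, and ICR adults grey, n = 17) and dashed lines at the highest ICR values. T1ND 2 lies above the ICR range for both interferon sums and within it for the myeloid sum, T1ND 1 lies within the ranges of all 3 sums, and T1ND 3 to 7 lie above them.

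Some genes separated the T1ND and ICR groups, which also differ in age, sex and weight, in every library, T1ND 1 included. For 93 genes (0.685% of those tested) no T1ND library overlapped the ICR range, 53 higher and 40 lower in T1ND. All 93 were called, which follows largely from their being picked for that split. Reads of both strains were aligned to the same mm10 reference, and the part that strain differences in alignment have in these splits was not tested. The 93 held 4 genes of the interferon lists, *Gbp2*, *Herc6*, *Ifih1* and *H2-DMb2*. Of these, *Gbp2*, *Herc6* and *H2-DMb2* were lower in T1ND 1 to 3 than in T1ND 4 to 7, and *Ifih1* was not. Outside these lists the same order was seen in *Ctsz*, *Ifi202b*, *Tifa* and further genes, whose number was not counted. The 10 largest rises and 10 largest falls with at least 5 CPM in the higher group are described next.

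*Lefty1* (chr1:180935022-180938401), a secreted inhibitor of Nodal signalling, had the largest difference among these. It stood at 8.14, 11.9, 10.8, 11.9, 8.58, 9.11 and 6.38 CPM in T1ND 1 to 7, and all 17 ICR libraries together held 10 counts (at most 0.0506 CPM), a difference of 8.94 ± 0.33 (adjusted p = 3.93e-17). With *Tescl* (chr7:24333080-24333965), a calcium-binding protein related to tescalcin, it met a rule for genes split between groups, every library under 0.5 CPM on one side and over 2 CPM on the other. *Tescl* stood at 5.50, 5.78, 5.08, 8.10, 4.22, 8.65 and 3.10 CPM in T1ND and 0.0280 to 0.467 CPM (median 0.172) in ICR adults, a difference of 4.65 ± 0.37.

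*Chl1* (chr6:103510584-103733038), a neural cell adhesion molecule, rose by 4.31 ± 0.45, and *Dio1* (chr4:107291465-107307168), a deiodinase that activates thyroid hormone, by 3.26 ± 0.32. *Amy1* (chr3:113555952-113577750), an amylase gene with near copies among which reads may be split, stood at 669, 399.6, 809, 87.4, 624, 1768 and 300.3 CPM in T1ND 1 to 7 against 0.909 to 83.1 CPM (median 7.72). None of the 22 listed acinar markers was called, and T1ND 4, with the lowest acinar share of the T1ND libraries, had the lowest *Amy1*. *Dnase1l3* (chr14:7965187-7994760), a nuclease secreted mostly by macrophages and dendritic cells, stood at 0.768, 0.697, 5.39, 26.30, 28.1, 27.8 and 22.5 CPM against 0 to 0.519 CPM (median 0.117), and *Vcam1* (chr3:116110020-116129688), an adhesion molecule for leukocytes, at 1.44, 2.04, 7.62, 40.96, 17.7, 35.6 and 70.97 CPM against 0.0504 to 1.44 CPM (median 0.454). For both genes T1ND 1 and 2 stood just above the ICR range and T1ND 4 to 7 far above it.

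Among the falls, *Jakmip1* (chr5:37025852-37150614), a protein that binds JAK kinases and microtubules, stood at 14.2, 16.03, 9.81, 12.7, 7.20, 6.47 and 10.97 CPM in T1ND 1 to 7 and 36.5 to 79.5 CPM (median 68.6) in ICR adults, and fell by 2.51 ± 0.19. *Kcnj5* (chr9:32314706-32344380), a potassium channel opened by G proteins, stood at 3.75, 6.97, 6.12, 6.46, 3.07, 5.13 and 8.14 CPM against 16.04 to 65.5 CPM (median 26.4) and fell by 2.53 ± 0.29. *Meox1* (chr11:101877510-101894354), a homeobox factor, had 28 counts over the 7 T1ND libraries and 3437 over the 17 ICR libraries, a difference of -5.57 ± 0.66. These genes were picked because every T1ND library lay below all ICR libraries, so the low place of T1ND 1 follows from that choice.

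Structural and matrix genes among the falls were *Lama3* (chr18:12333417-12583013), a laminin chain (-3.91 ± 0.42), and *Col6a6* (chr9:105689417-105828246), a collagen chain (-3.54 ± 0.31). Others were *Iqcg* (chr16:33014270-33057145), a calmodulin-binding protein of cilia (-3.66 ± 0.27), *Nacad* (chr11:6597814-6606059, -2.61 ± 0.41) and *Slc14a2* (chr18:78146144-78596950), a urea transporter (-2.35 ± 0.27). *Cwc22* (chr2:77881159-77946356), a spliceosome factor, stood at 6.85 to 11.3 CPM (median 8.53) in T1ND against 19.8 to 95.0 CPM (median 37.4) and fell by 2.33 ± 0.29. *Rmnd1* (chr10:4403169-4432405), needed for mitochondrial translation, fell by 2.23 ± 0.20.

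**Figure D4:**
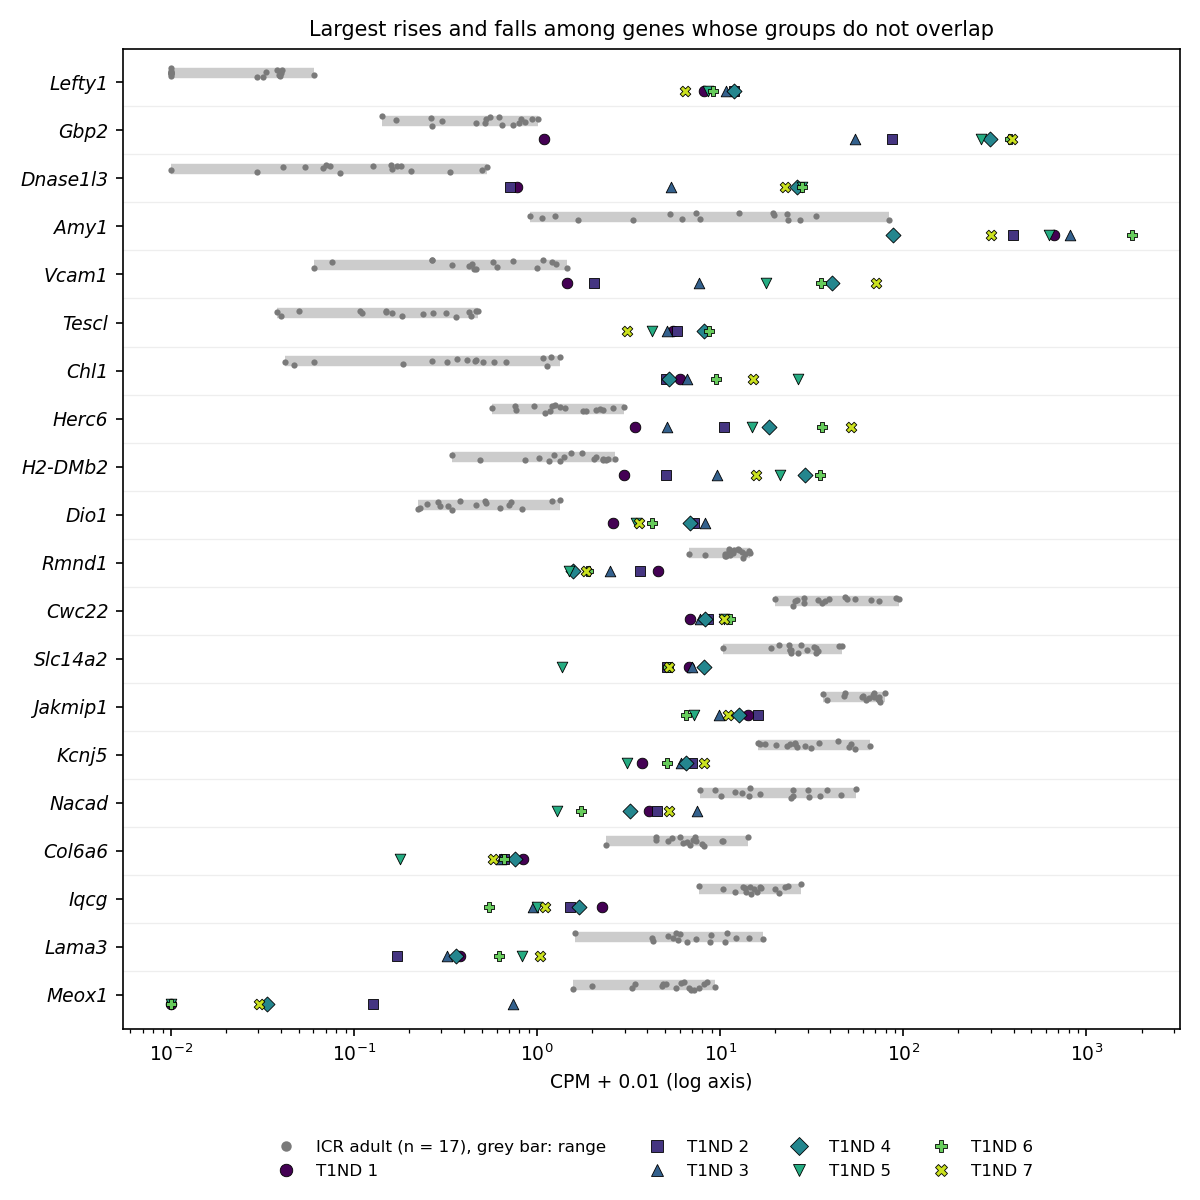
CPM plus 0.01 on a log axis for the 10 largest rises and 10 largest falls among genes whose groups do not overlap, with ICR adults (n = 17) as grey points over a bar of their range and T1ND 1 to 7 as 7 symbols. For Lefty1, Tescl, Amy1 and Jakmip1 T1ND 1 stands amid the other T1ND libraries, and for Gbp2, Herc6, Vcam1 and H2-DMb2 it stands nearest to the grey bar.

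Of the 93 genes 92 had a position in the annotation, and they lay on all autosomes except chromosome 19, with 13 on chromosome 3, 11 on chromosome 6 and 8 on chromosome 2. How many tested genes each chromosome or stretch holds was not counted, so whether these numbers exceed that share was not tested. Some of the 92 genes lay within 1 Mb of each other. On chromosome 8, between 70646436 and 72153142, *Pgpep1*, *Tmem221*, *Colgalt1* and *Tpm4* were higher and *Ocel1* lower. On chromosome 4, between 145585172 and 146469440, *Gm13212*, *Zfp987* and *Zfp992* were higher, and between 147553277 and 148088064 *Zfp985* and *Zfp984* were higher and *Agtrap* lower. The Zfp genes there are close paralogs among which reads can be split. On chromosome 3, the histone genes *H2ac20* and *H2bc18* were higher and *Sv2a*, a synaptic vesicle protein, lower. In 7 of 8 such clusters genes of both directions stood side by side.

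Libraries outside this comparison gave a further reading, added after the data were seen. In diabetic NOD-ICR mice of the same genotype (T1D, n = 4, of which 3 were extracted on Qiagen columns and 1 with TRIzol) against ICR adults extracted with TRIzol (n = 4), 44 of the 53 higher genes were again higher without overlap, against 19.2% of all tested genes. Of the 40 lower genes 35 were again lower without overlap, against 18.1% of all tested genes, and no gene lay wholly on the opposite side. In those libraries *Lefty1* stood at 2.86 to 9.98 CPM in T1D and at most 0.0185 CPM in ICR adults, and *Jakmip1* at 6.06 to 10.5 CPM against 59 to 94.2 CPM. The T1D mice (3 females and 1 male) were 98 to 150 days old and the TRIzol ICR adults (4 females) 136 to 289 days. Diabetes, strain, age and most of the extraction difference cannot be told apart there.

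Genes of β cell identity and function mostly did not pass the test. The insulin share of counts was 5.62 percentage points lower in T1ND (exact permutation test, two-sided, p = 0.191, 346104 regroupings). The log2 ratio of *Ins1* to *Ins2* was 0.25 higher (exact p = 0.103), and it passed 0.05 in animals of at most 131 days (0.41, exact p = 0.0455). *Ins1* (-0.01 ± 0.26) and *Ins2* (-0.23 ± 0.28) were not called (adjusted p = 0.982 and 0.646, edgeR), nor was *Iapp*, the co-secreted amyloid peptide (-0.07 ± 0.22).

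Of 20 β cell transcription factors 3 fell and none rose (5.76% of all tested genes fell), with a median of -0.27. *Pdx1*, the master factor of pancreas and β cells, stood at 102.5, 122.7, 91.3, 122, 65.9, 58.5 and 83.5 CPM in T1ND 1 to 7 and 93.5 to 156 CPM (median 113) in ICR adults, a difference of -0.34 ± 0.13 that was not called (adjusted p = 0.0842, edgeR). *Mafa*, a factor of mature β cells, stood at 155.4, 126, 56.70, 61.5, 12.9, 15.8 and 86.7 CPM against 47.7 to 145.8 CPM (median 99.7). T1ND 1 lay above the ICR range and T1ND 5 and 6 below it, and the difference of -0.46 ± 0.34 was not called (adjusted p = 0.4). Called members were *Myt1* (-0.66 ± 0.18), a factor of endocrine progenitors and β cells, *Ldb1* (-0.44 ± 0.13) and *Foxo1* (-0.39 ± 0.12). The call of *Ldb1* is lost without T1ND 6, and that of *Foxo1* without T1ND 5, 6 or 7 or ICR 7.

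Of 23 hormone and granule genes 4 fell. *Slc30a8* (chr15:52295553-52335798), the zinc transporter of insulin granules and an autoantigen of type 1 diabetes, stood at 444, 411, 404, 305, 299.5, 139.8 and 238 CPM in T1ND 1 to 7 against 354 to 756 CPM (median 512), and fell by 0.72 ± 0.18. T1ND 1 to 3 lay within the ICR range and T1ND 4 to 7 below it. *Vamp2*, *Rab3a* and *Unc13a*, which dock and fuse vesicles, fell by 0.53 ± 0.12, 0.43 ± 0.10 and 1.05 ± 0.22. Of 16 maturity markers 3 fell, *Slc30a8*, *Trpm5*, a cation channel that follows calcium (-1.04 ± 0.27), and *Cox6a2*, a muscle-type subunit of cytochrome oxidase that mature β cells express (-2.34 ± 0.71, not called without T1ND 4 or 7). *Ucn3*, a late marker of maturity, stood at 681, 740.3, 512, 551, 85.4, 319 and 193 CPM against 426 to 952 CPM (median 643), below the ICR range in T1ND 5 to 7, and was not called (-0.62 ± 0.25, adjusted p = 0.108, edgeR).

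Glucose sensing genes gave 2 falls among 21 tested, *Trpm5* and *Gipr*, the receptor for the incretin GIP, a share of 9.52% against 5.76% over all tested genes. *Gipr* stood at 46.1, 17.2, 11.3, 9.75, 2.28, 4.63 and 8.46 CPM in T1ND 1 to 7 against 15.8 to 68.4 CPM (median 31.0), a difference of -1.29 ± 0.40, and of -1.96 without T1ND 1. Its call is lost without T1ND 3, 4, 5, 6 or 7. *Slc2a2*, the glucose transporter (-0.49 ± 0.21), was not called (adjusted p = 0.116, edgeR). Of 18 autoantigens of type 1 diabetes, besides *Slc30a8*, *Gad2* (chr2:22621015-22693877), an enzyme that makes GABA, stood at 5.50, 3.48, 1.39, 2.98, 0.0281, 1.84 and 3.08 CPM against 4.13 to 27.6 CPM (median 10.4) and fell by 2.09 ± 0.47, while *Tspan7* stood at 0.28 ± 0.09, a call lost without any of T1ND 2, 4 or 6 or ICR 7, 10 or 15.

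The lower calls in these lists depended on which animals entered, as did the number of lower calls over all tested genes. The 4 lists of transcription factors, granule, glucose sensing and maturity genes held 10 distinct genes called lower, of which T1ND 1 lay below every ICR library in 0, T1ND 2 and 3 in 3 and 1, T1ND 4 in 5 and T1ND 5 to 7 in 8 each. Among females (5 against 7) and among animals of at most 131 days (6 against 6), 1 granule gene was called lower in either subset, and 0 and 1 transcription factors. Over all tested genes 263 of 13321 were called lower among females and 354 of 13143 in the younger animals. Of the antiviral effectors, 21 of 31 tested rose among females, and 23 of 30 in the younger animals, beside 486 and 622 rises over all genes tested there. T1ND 4 to 7, which held most of the values below the ICR range, also had the 4 highest myeloid sums. With the myeloid term none of the 10 was called, in a fit that called only 70 of all 13571 tested genes lower. All 10 kept a negative difference, some near the value without the term (*Cox6a2* -2.26 ± 1.06, *Unc13a* -0.87 ± 0.31) and others nearer 0 (*Slc30a8* -0.34 ± 0.22, *Gipr* -0.56 ± 0.42).

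**Figure D5:**
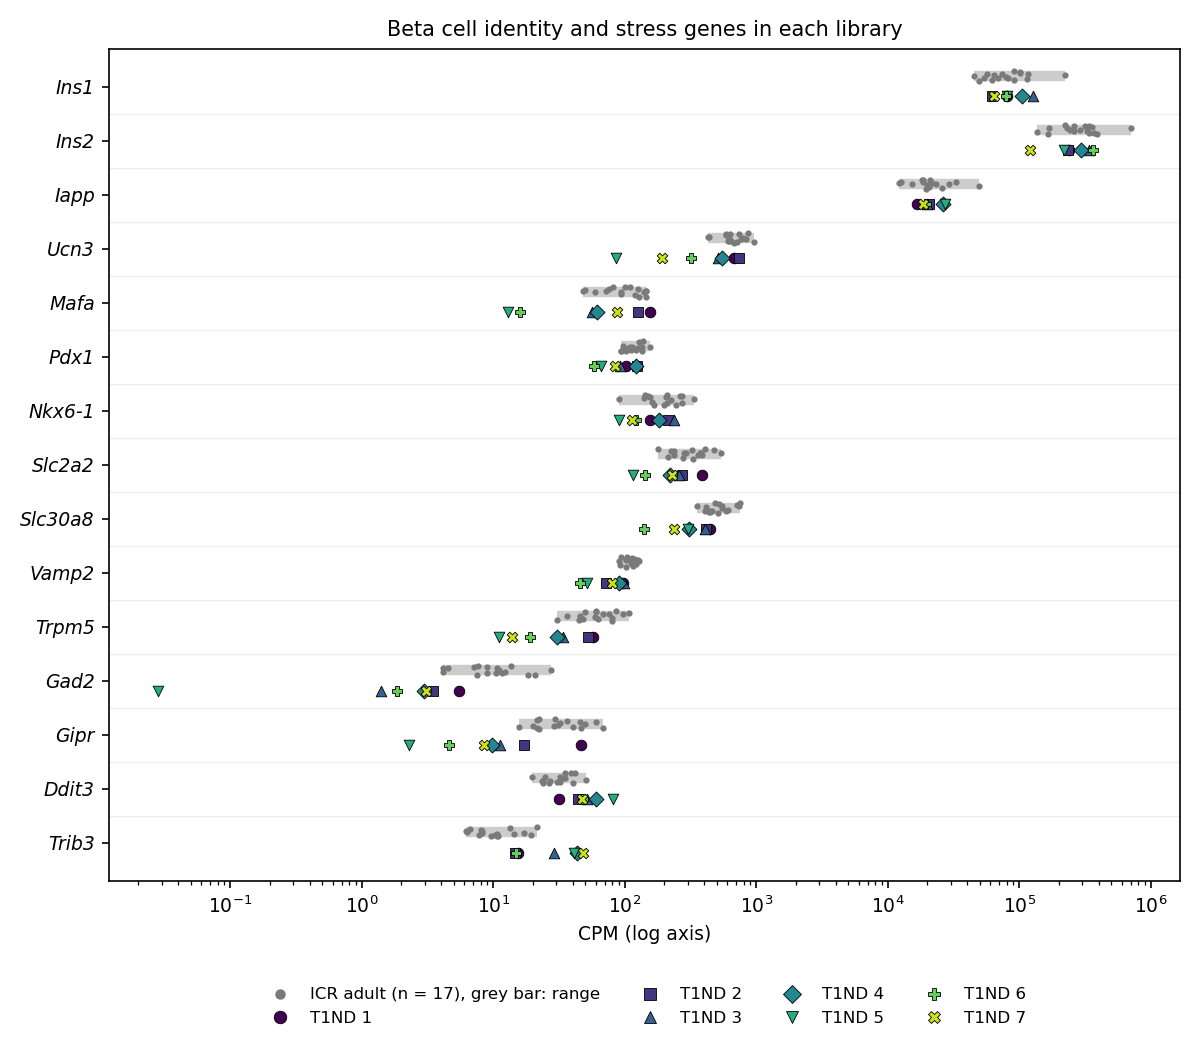
CPM on a log axis for 13 genes of β cell identity and function and for the stress genes Ddit3 and Trib3 in each library, with ICR adults (n = 17) as grey points over a bar of their range and T1ND 1 to 7 as 7 symbols. Ins1 and Iapp lie within the grey bars in every T1ND library, while T1ND 5, 6 and 7 lie to the left of the bars for Ucn3, Slc30a8, Trpm5, Gad2 and Gipr.

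Disallowed genes, which β cells keep low, gave 10 rises and 1 fall among 21 tested, with a median of 1.22. *Acot7*, an acyl-CoA thioesterase, stood at 2.40, 4.90, 2.64, 8.90, 6.44, 11.9 and 5.12 CPM in T1ND 1 to 7 against 0.939 to 4.63 CPM (median 1.85) and rose by 1.54 ± 0.30. *Arhgdib*, a signalling inhibitor abundant in leukocytes, rose by 4.08 ± 0.51 and *Hk2*, the low-Km hexokinase, by 3.37 ± 0.69, and for both T1ND 1 and 2 lay within the ICR range as they did for the myeloid sum. With the myeloid term 0 of the 21 were called, beside 183 of all 13571 tested genes. The fall was *Aldh1a3*, which makes retinoic acid and is often used as a sign of dedifferentiation, at 1.23, 0.256, 1.29, 0.117, 1.91, 0.0383 and 0.121 CPM against 0.112 to 38.3 CPM (median 1.29). Its call is lost without any 1 of 11 libraries (T1ND 2, 3, 4, 6 or 7, or ICR 6, 7, 10, 11, 12 or 17), and only T1ND 6 lay below the ICR range. Among females 3 disallowed genes were called, and 3 among animals of at most 131 days, all higher, beside 749 of 13321 and 976 of 13143 tested genes.

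Of 17 tested progenitor genes 4 rose, and *Aldh1a3*, which is in both lists, fell. *Dlk1* (chr12:109452485-109463336), an imprinted growth regulator of fetal tissues, stood at 4.91, 5.23, 7.48, 8.69, 11.4, 5.47 and 3.72 CPM in T1ND 1 to 7 and 0.172 to 2.49 CPM (median 0.557) in ICR adults, rose by 2.88 ± 0.40 without overlap, and stayed called with the myeloid term at 2.43 ± 0.54. *Fev*, a factor of endocrine progenitors, rose by 1.65 ± 0.48.

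Stress and metabolic lists were examined next, beside the 14.5% of all tested genes that were called (8.7% higher and 5.76% lower). Of 24 genes of the integrated stress response, which slows translation, 6 rose and none fell, with a median of 0.24. *Trib3*, a stress-induced pseudokinase, stood at 15.4, 14.7, 29.01, 43.4, 40.99, 14.8 and 48.27 CPM in T1ND 1 to 7 against 6.23 to 21.6 CPM (median 10.2) and rose by 1.41 ± 0.25. *Ddit3*, which codes for the death-promoting factor CHOP, stood at 31.4, 43.8, 51.7, 59.9, 80.8, 48.30 and 47.5 CPM against 19.8 to 50.6 CPM (median 32.2) and rose by 0.72 ± 0.16. Among females 0 of the 24 were called, among animals of at most 131 days 3, and with the myeloid term 0. These fits also called fewer of all tested genes, 749 of 13321, 976 of 13143 and 183 of 13571. Of 24 ER chaperone genes 1 rose, *Herpud1* (0.66 ± 0.20), and it was not called without T1ND 5 or 6. None of 28 oxidative phosphorylation genes was called, and *Cox5a*, the one of smallest p with *Cycs*, stood at 0.36 ± 0.13 (adjusted p = 0.0541, edgeR). Of 28 proliferation genes *Ccnd1*, a cyclin of G1 (-1.18 ± 0.34), and *E2f1* (-0.76 ± 0.18) fell, 7.14% of the list against 5.76% of all tested genes.

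Cholesterol synthesis gave 4 rises and 2 falls among 23 (26.1% called, against 14.5% of all tested genes). *Insig1*, a sterol-regulated retention protein, stood at 96.4, 67.6, 65.4, 62.8, 54.8, 43.3 and 74.01 CPM in T1ND 1 to 7 against 24.6 to 55.7 CPM (median 39.1) and rose by 0.77 ± 0.14, with T1ND 1 the highest, and *Cyp51*, a demethylase of the pathway, rose by 0.83 ± 0.17. Glycolysis gave 3 rises and 2 falls among 19 (26.3% called). *Pfkm*, the muscle-type phosphofructokinase, was down by 0.61 ± 0.12 and *Slc2a1*, a glucose transporter, by 0.52 ± 0.14. Of 20 antioxidant genes 3 rose, led by *Gpx1*, a glutathione peroxidase, at 0.92 ± 0.21. That is 15% called, near the 14.5% of all tested genes. Of 20 genes that respond to cell dissociation 4 rose (20% called), among them *Hspa8* (0.79 ± 0.15) and *Klf6* (1.33 ± 0.21). The summed level of the 20 genes, 1670 to 2357 CPM (median 1696) in T1ND, lay above every ICR library (at most 1550 CPM). This sum moved with the groups, and its part in the stress genes was not tested.

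Some markers of other cell types also differed. Of 8 tested delta and PP cell markers 4 rose. *Sst*, the hormone of delta cells, stood at 1647, 3652, 3792, 7151, 4669, 7153 and 1610 CPM in T1ND 1 to 7 against 250.4 to 3954 CPM (median 819.3) and rose by 1.92 ± 0.38, and *Rbp4*, a retinol carrier high in delta cells, rose by 2.50 ± 0.38. Alpha cell markers gave 1 call among 9 tested (11.1%, against 14.5% of all tested genes). This was *Gcg*, the hormone of alpha cells, at 1.66 ± 0.52 with only 2 libraries above the ICR range. Its call is lost without T1ND 2, 4, 5 or 6. Of 12 duct markers 5 rose, with *Spp1*, osteopontin, which macrophages also make, at 2.97 ± 0.57 and *Krt7* at 0.62 ± 0.14. Of 7 tested B and plasma cell markers 4 rose, among them *Cd79b*, a chain of the B cell receptor, by 2.58 ± 0.61 and *Cd22*, its inhibitor, by 1.59 ± 0.38. None of 11 stromal markers was called, and *Pecam1*, an endothelial marker, stood at 2.24 ± 0.67, and at 1.38 and uncalled without T1ND 3.

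Candidate genes of the NOD diabetes susceptibility regions (Idd) were higher in 9 of 16 tested, with none lower, and 25 were listed. Several of these genes are also interferon or myeloid genes, among them *B2m*, *Ifih1*, *H2-Ab1* and *Fcgr1*, a high-affinity IgG receptor of macrophages (4.72 ± 0.65). *Slc11a1*, an iron and manganese transporter of phagocytes, stood at 3.13, 0.697, 4.04, 13.9, 17.6, 9.61 and 13.9 CPM in T1ND 1 to 7 against 0.150 to 2.42 CPM (median 0.602) and rose by 3.54 ± 0.43. With the myeloid term 1 of the 16 was called, beside 183 of all 13571 tested genes.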

How the data were processed

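RNA of sorted β cells was made into unstranded SMART-Seq v4 and Nextera XT libraries, per the labels' protocols. The deposited table holds expected counts per gene, which the authors estimated with RSEM 1.3.0 and Bowtie 1.2.2 after bcl2fastq 2.20.0.422 on the mm10 assembly, per the submitters' processing notes. The table has 20306 genes, and 48.5% of its values are not whole. A normalized table was not used here.

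Expected counts were rounded, filtered with filterByExpr (13571 genes kept) and fitted with edgeR 4.0.16 (R 4.3.3; TMM factors, robust quasi-likelihood fit, group as the only term) on the 24 libraries, with Benjamini-Hochberg adjustment over all tested genes. A gene had to be above the filter in 7 libraries. Depth was 28402805 to 42138695 counts per library, so counting error is small beside the spread between libraries for all but the rarest genes. On simulated counts with known changes in 13571 genes the fit recovered 56 of 100 changes of 2-fold and 87 of 100 of 4-fold, with 8 false calls. Insulin share and the Ins1 to Ins2 ratio were compared by exact permutation over the 24 libraries. Gene positions and promoter sequences are from RefSeq on GRCm38.p6, and 18963 symbols matched by name and 1247 by a synonym.

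The members and the 40 gene lists were chosen with earlier results of these data known. Named genes were the 10 largest rises and falls without overlap and with at least 5 CPM, up to 4 called members per list by adjusted p (the 2 of smallest p where none was called), genes split between groups, and 20 anchor genes. Irgm1, Isg15, Cxcl9, Ifnar1, Stat3, Ifnb1, Ifnl2, Ifnl3, Ctss, Ctsz, Ifi202b, Tifa and the neighbouring genes were named after their values were seen. Alternatives were other scalings and tools (DESeq2 1.42.0, limma 3.58.1 voom), other filters, subsets of animals, terms for sex, age and marker sums, and leaving out each library. Some genes of the lists are not reported here by name.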

Additional observations from a re-analysis of the deposited data

Results flagged for a closer look

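For 16 of 145 named genes, 1 T1ND library lay apart from the other 6 by Dixon's criterion at the 95% level, which chance alone meets in about 1 of 20 groups of 7 libraries. T1ND 6 stood highest for *Amy1* (1768 CPM), *Pla2g1b*, an acinar phospholipase (737.1 CPM), *Ccl8* (378 CPM), *Pyy*, a gut and islet peptide (1028 CPM), and *Eif4ebp1*, a translation inhibitor (114 CPM). The log2 difference of *Pyy* was 0.80 and not called without T1ND 6. T1ND 6 also had the highest acinar share of the T1ND libraries, 24.8% of counts.

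T1ND 1, whose interferon sums lay within the ICR range, stood highest for *Gipr* (46.1 CPM) and *Alas2*, an erythroid enzyme of heme synthesis (0.276 CPM), and also for *Dnajb1*, a heat shock cochaperone (45.3 CPM). T1ND 4 stood highest for *Cd8a* (2.68 CPM) and *Ifng* (0.235 CPM). T1ND 7 stood highest for *Cd274* (194 CPM) and *Ddx58* (60.6 CPM). T1ND 3 stood highest for *Pecam1* (10.5 CPM) and *Meox1* (0.730 CPM), which is still below every ICR library. T1ND 5, the mouse of 245 mg/dl, stood highest for *Txnip*, a gene induced by glucose (276 CPM), and lowest for *Col6a6* (0.169 CPM).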

How the results depend on the processing

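Against 1962 called genes and 27 called antiviral effectors, a filter of at least 5 CPM in 7 libraries gave 1131 and 13, and females only gave 749 genes. Animals of at most 131 days gave 976 genes, the myeloid term 183 and 8, the T and NK term 179 and 3, and both immune terms, chosen after the data were seen, 128 and 1. Fewer genes or fewer animals enter the first 3, and for the others the cause was not tested. Leaving out 1 library gave 1461 to 2359 called genes and 27 to 29 antiviral effectors. The 93 genes without overlap were all called by DESeq2, voom, RLE scaling and every fit without 1 library. They were picked for not overlapping in these same libraries, and leaving out 1 library cannot undo that. These counts therefore add no support of their own. Of them 57 were called with the 5 CPM filter, 88 in females, 87 at most 131 days, 62 under the myeloid term, 67 under the T and NK term and 50 under both.

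The Ins1 to Ins2 log2 ratio (0.25) passed 0.05 in animals of at most 131 days (0.407), without T1ND 6 (0.359) and without ICR 1 (0.301), with a range of 0.147 to 0.359 over single libraries left out. The insulin share ran from -7.318 to -4.188 percentage points over those fits. *Ins1*, near 0, was positive under RLE 0.016, DESeq2 0.016, voom 0.185, 5 CPM 0.004, 63 libraries 0.010, females 0.259, at most 131 days 0.347, sequencing sample numbers up to 60 0.007, sex and age terms 0.092, the myeloid term 0.182, the T and NK term 0.031, the acinar term 0.061 and both immune terms 0.121, and ran from -0.132 to 0.135 over single libraries left out. *Ins2* turned to 0.158 in females. *Iapp* turned to 0.245 in females, 0.006 at most 131 days, 0.079 with sex and age, 0.081 with the T and NK term, and ran from -0.140 to 0.045 (without ICR 12) over single libraries left out. *Txnip* turned to 0.006 (RLE and DESeq2), 0.036 (sex and age) and -0.631 to 0.119 (single libraries left out). Under the myeloid term *Il10rb* turned to -0.008, *Cycs* -0.225, *Hmox1* -0.152, *Txn1* -0.028, *Mafa* 0.063 and *Slc2a2* 0.152. *Hmox1* was -0.243 with the T and NK term and -0.357 with both, where *Mafa* was 0.030 and *Slc2a2* 0.069. No paired analysis was possible because the labels carry no replicate numbers that link the groups.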
